A study of Arabidopsis thaliana with 27 samples.

Results

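The 100 genes described here were more abundant in cop1-4 and less abundant in hy5-215 than in wild-type Col-0 seedlings at the end of the night. They were selected on those measured values, from 32678 listed genes of Arabidopsis thaliana. For each gene, the read count was scaled to the total of its library (CPM) and averaged over the 3 libraries of a group. The rule then took the smaller of the cop1-4 minus Col-0 and the Col-0 minus hy5-215 difference of log2(mean CPM + 0.5), and the 100 largest values were kept. RNA came from whole seedlings grown for about a week on MS medium at 22 °C with 8 h of light and 16 h of darkness per day. Zeitgeber time (ZT) counts hours after lights on, so ZT0 closes the night and ZT6 lies within the day. The lines were cop1-4, hy5-215, the double mutant vil1-1cop1-4, vil1-1 and the wild type Col-0, with 3 libraries each. All lines were sampled at ZT0 and all but hy5-215 at ZT6, which gave 9 groups and 27 libraries. cop1-4 is a viable allele that leaves a shortened COP1 protein, so it is not a complete loss of COP1. Both hy5-215 and vil1-1 were present as 1 line each, and the labels do not say whether replicates came from separate cultures.

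COP1 is the substrate-binding part of an E3 ubiquitin ligase that, in darkness, marks light-signalling transcription factors for degradation. HY5, a bZIP transcription factor, is the best known of these targets. It binds promoters at ACGT-containing sequences, CACGTG (the G-box) among them, and promotes the light-grown form of the seedling: short hypocotyl, open cotyledons, chloroplasts and flavonoid sunscreens. A gene that HY5 activates and COP1 holds back would be high in cop1-4 and low in hy5-215, which is the pattern the rule looks for. The pattern does not show that HY5 acts on any gene. VIL1, listed as VRN5 in the gene table, is a PHD-finger protein that works with Polycomb repressive complex 2.

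Libraries held 19737975 to 33562745 reads in genes. VRN5 averaged 5.93 ± 1.19 CPM in vil1-1 and 23.1 ± 1.01 CPM in Col-0 at ZT6 (SD, n = 3 each; log2 change -1.96 ± 0.10 SE, edgeR adjusted p = 5.8e-19). COP1 transcript averaged 47.8 ± 3.34 CPM in cop1-4 and 34.3 ± 1.43 CPM in Col-0 at ZT0, and HY5 transcript 14.5 ± 0.111 CPM in hy5-215 and 18.8 ± 0.928 CPM in Col-0, so transcript levels do not check those 2 labels. HYH, the closest relative of HY5, averaged 75.9 ± 3.24 CPM in cop1-4, 13.2 ± 2.21 CPM in hy5-215 and 35.3 ± 1.82 CPM in Col-0 at ZT0. The hy5-215 libraries stood apart from the other 24. Reads outside genes made up 2.16 to 2.89% in hy5-215 and 0.586 to 1.12% in the rest. Summed levels of 8 seed and embryo markers were 154 to 165 CPM in hy5-215, 1.83 to 2.07 CPM in cop1-4 and 9.79 to 16.1 CPM in Col-0 at ZT0, with LEC1 at 0 reads in hy5-215 and SESA1 at 0 reads in cop1-4 and Col-0. The 5 leaf markers summed to 44500 to 51200 CPM in cop1-4, 23800 to 25300 CPM in hy5-215 and 20600 to 21500 CPM in Col-0 at ZT0, none of them at 0. That sum does not stand for each marker. In vil1-1cop1-4 against vil1-1 at ZT0, 3 of the 5 were called higher and 1 lower (CAB2, log2 -1.93). Of all tested genes, 34.0% were called higher and 34.0% lower there. The 7 stomatal lineage markers summed to 136 to 143 CPM in cop1-4, 84.3 to 90.7 CPM in hy5-215 and 76.8 to 83.1 CPM in Col-0. The 11 root markers summed to 169 to 186 CPM, 203 to 221 CPM and 196 to 206 CPM in the same order of lines, and the 4 cell cycle markers to 15.2 to 20.2 CPM, 41.9 to 45.9 CPM and 27.3 to 32.5 CPM. The part of these shifts in the selected genes was not tested. In whole seedlings, fewer cells of a type and less RNA per cell cannot be told apart.

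Sequence upstream of the genes is shown first, because the G-box is the element HY5 is best known to bind. The 250 bases before the annotated gene start, from the TAIR10.1 assembly of RefSeq, held CACGTG in 4 of the 100 genes. These were TT4 (chalcone synthase, the first committed enzyme of flavonoid synthesis), MYB12 (an activator of flavonol genes), and the neighbouring ferric reductase genes FRO6 and FRO7. Each is printed 5′ to 3′ on the strand of its gene, with the G-box in capitals.
TT4, chr5:4488226-4488475, + strand: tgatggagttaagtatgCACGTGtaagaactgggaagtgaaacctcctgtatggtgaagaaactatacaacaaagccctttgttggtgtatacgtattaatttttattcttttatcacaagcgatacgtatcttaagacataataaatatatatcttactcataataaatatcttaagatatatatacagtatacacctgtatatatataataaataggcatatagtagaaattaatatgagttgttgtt
MYB12, chr2:19476076-19476325, + strand: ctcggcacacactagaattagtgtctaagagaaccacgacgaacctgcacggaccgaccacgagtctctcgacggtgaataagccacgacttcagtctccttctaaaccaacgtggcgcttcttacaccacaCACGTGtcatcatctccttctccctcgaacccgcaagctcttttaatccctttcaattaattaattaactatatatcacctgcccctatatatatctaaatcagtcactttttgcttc
FRO6, chr5:20204596-20204845, - strand: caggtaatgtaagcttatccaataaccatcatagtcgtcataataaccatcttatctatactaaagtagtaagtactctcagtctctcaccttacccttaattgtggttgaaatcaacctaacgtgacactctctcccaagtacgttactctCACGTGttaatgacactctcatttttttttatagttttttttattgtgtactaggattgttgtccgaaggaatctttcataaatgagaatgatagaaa
FRO7, chr5:20208778-20209027, - strand: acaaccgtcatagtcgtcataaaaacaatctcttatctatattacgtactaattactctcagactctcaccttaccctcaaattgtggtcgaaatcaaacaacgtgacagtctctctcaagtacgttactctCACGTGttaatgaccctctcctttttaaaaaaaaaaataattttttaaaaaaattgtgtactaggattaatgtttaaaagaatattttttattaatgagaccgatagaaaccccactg

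The upstream sequences of FRO6 and FRO7 shared an unbroken run of 29 bases around the G-box, caagtacgttactctCACGTGttaatgac. G-boxes were not more frequent among the selected genes than elsewhere. In windows of 300 bases (250 before and 50 after the gene start, both strands), CACGTG occurred in 5.0% of the 100 genes, in 8.7% of the 21422 tested genes with a window and in 7.0% of all 31911 windows. GACGTG occurred in 8.0% of the 100 genes and 7.5% of the tested ones. TACGTG occurred in 8.0% of both sets. The core ACGT, which lies within each of those motifs, occurred in 54.0% of the 100 genes and 50.7% of the tested genes, and AAAATATCT, the evening element of clock-regulated promoters, in 3.0% and 2.9%. The fifth gene with CACGTG in its window was BT1, where the match spans the gene start. A match is only a description of the letters in these windows, and a promoter without one may still be bound.

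Among the 100 genes, 98 encode proteins, 1 is a pseudogene (AT3G28160) and 1 is the precursor of a microRNA, MIR163. The mature miR163, whose known targets in Arabidopsis are mRNAs of methyltransferases, reads as follows with its seed, bases 2 to 8, in capitals. It lies at chr1:24884359-24884382 on the + strand of TAIR10.1.
miR163: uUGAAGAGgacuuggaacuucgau

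Only 51 of the genes carry a symbol in the reference gene table. The annotation of 24 of the 98 protein-coding genes (24.5%) mentions chloroplast, plastid or thylakoid, against 13.6% of 20713 tested protein-coding genes. Genes with cytochrome P450, a large family of oxidising enzymes, in their product name accounted for 7 of the 98 (7.1%) and 0.9% of the tested genes. Members of the family named otherwise were not counted. Both shares describe genes chosen on these data and carry no test. Chromosome 5 held 31 of the 100 genes and 23.1% of the tested ones, and chromosome 1 held 19 and 26.5%. There were 4 pairs of direct neighbours: FRO6 with FRO7, AT3G09160 with AT3G09162, AT5G46490 with AT5G46500, and AT5G55570 with AT5G55580. The last pair lies on opposite strands and overlaps at its ends. No source used here gives the strand setting of the counting, so reads within the overlap cannot be told apart. In all, 30 of the 100 genes overlap another annotated gene, TT4, GPX7, FADA and SCA3 among them, against 24.2% of all listed genes.

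The values that chose the genes are given as description. The rule value was 2.32 at rank 1, had a median of 0.97 and reached 0.78 at rank 100. The cop1-4 minus Col-0 difference had a median of 1.36 and a range of 0.78 to 5.06, and the Col-0 minus hy5-215 difference a median of 1.04 and a range of 0.78 to 2.32. The hy5-215 side was the smaller one in 69 genes and the cop1-4 side in 31. The rule used all hy5-215 libraries, so the hy5-215 side rests on the selection alone and was not tested. Ranks 98 to 100 were AT5G55580 (0.79), FAH1 (0.78) and AT5G24460 (0.78). Genes just outside included NPQ1 (0.78) and UGP2 (0.77), so the boundary is not a natural gap. Of all listed genes, 3241 differed in both directions that the rule asks for. On this scale of summed library sizes the median of all 21448 tested genes was shifted by -0.51 in cop1-4 minus Col-0 and by 0.12 in Col-0 minus hy5-215. With library sizes scaled by TMM (trimmed mean of M values) those medians were 0, and the members' medians were 1.91 (range 1.2 to 5.56) and 0.90 (range 0.64 to 2.15). All levels below are CPM on TMM-scaled library sizes. Had the rule used them, 65 of the 100 genes would have been chosen again.

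**Figure D1:**
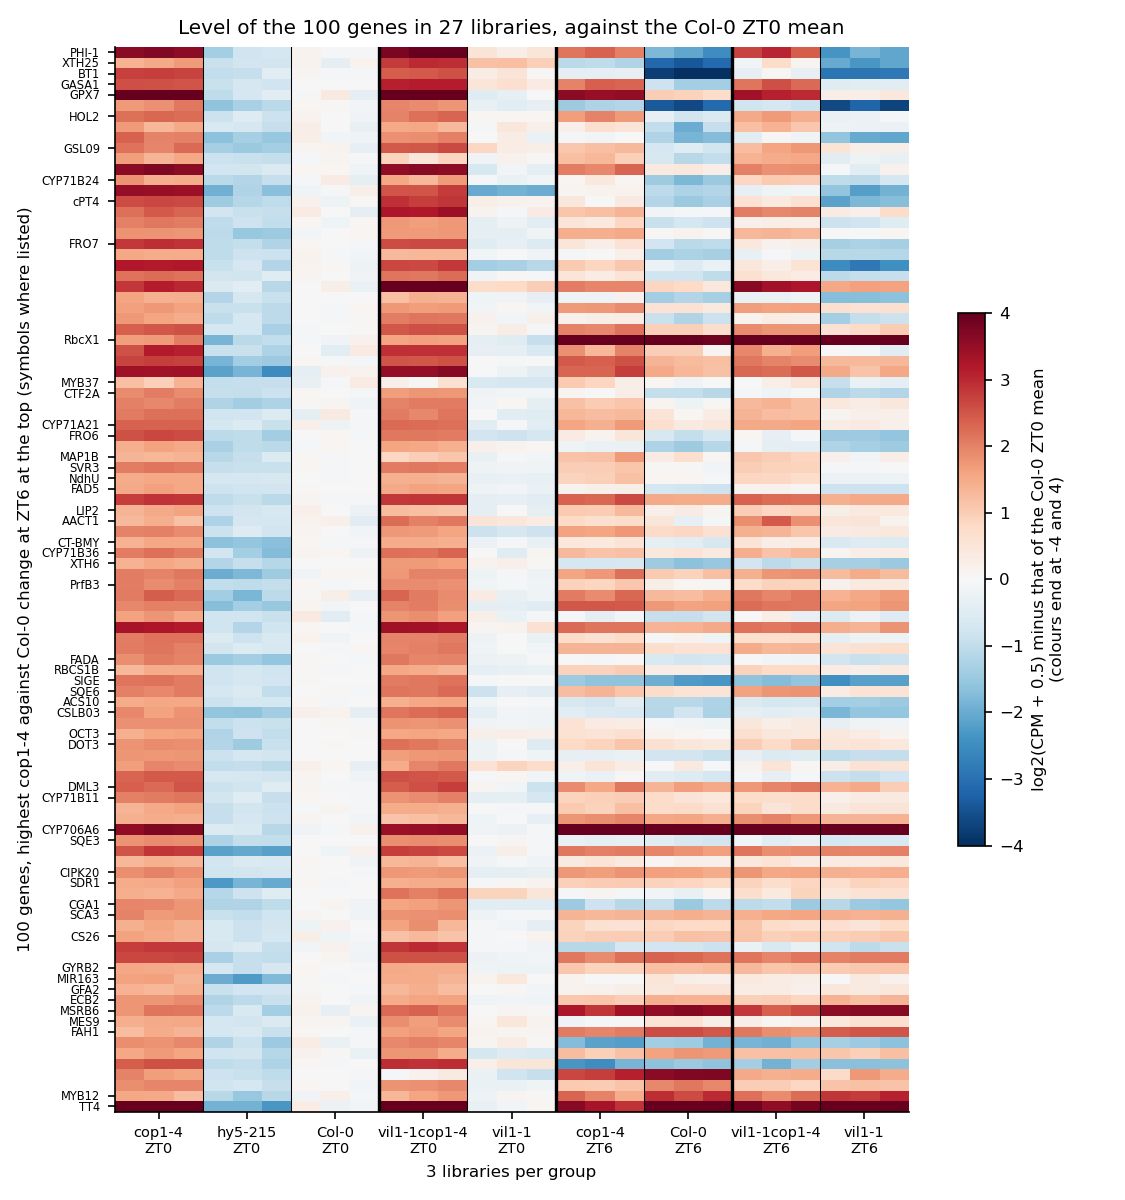
Levels of the 100 genes (rows) in the 27 libraries (columns, 3 per group), as log2(CPM + 0.5) minus the value of the Col-0 ZT0 mean. Rows run by the cop1-4 against Col-0 change at ZT6. The red blocks of cop1-4 and vil1-1cop1-4 at ZT0 stand beside blue in hy5-215 and near-white in Col-0 and vil1-1, while the ZT6 columns are mixed.

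Relative to the Col-0 ZT0 mean, the median of the 100 genes lay 1.91 higher on the log2 scale in cop1-4 at ZT0 and at -0.90 in hy5-215. It stood at 1.91 in vil1-1cop1-4 and at -0.11 in vil1-1 at ZT0, 2 groups the rule did not use. By day it was 0.99 in cop1-4 and 0.12 in Col-0, and 0.93 in vil1-1cop1-4 and 0.29 in vil1-1. The 3 libraries of each group gave close medians, for example 1.92, 1.96 and 1.97 in vil1-1cop1-4 at ZT0.

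The vil1-1cop1-4 and vil1-1 libraries, which the rule did not use, show how the genes behaved in cop1-4 when VIL1 was mutant too. All 100 genes were higher in vil1-1cop1-4 than in vil1-1 at ZT0 (edgeR quasi-likelihood test, adjusted p below 0.05 over 21448 genes). The background was high, since 34.0% of all tested genes were called higher and 34.0% lower. The rule took genes with a large cop1-4 difference at ZT0, and this contrast tests the same allele at the same time. That choice favours higher calls here, so the count is a description. The median change was 2.15 on the log2 scale, a 4.44-fold rise, with a range of 0.72 to 6.86, against a median of -0.02 for all tested genes. None was called lower, by DESeq2's Wald test either, and none had a log2 change below 0 at any p.

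By day the same mutation gave a mixed picture. In cop1-4 against Col-0 at ZT6, 76 of the genes were higher, 14 lower and 10 not called, where 32.6% of all tested genes were called higher and 34.0% lower. The median change was 0.84 (1.79-fold). In vil1-1cop1-4 against vil1-1 at ZT6, 75 genes were higher, 8 lower and 17 not called, against 29.5% and 29.5% of all tested genes, with a median of 0.76. These 2 day comparisons share no library, and 73 genes were higher in both and 8 lower in both. The share of all tested genes called alike in both was not counted, so these joint counts are description only. The choice by the cop1-4 difference at ZT0 favours higher calls in each day comparison too, so those counts are also description. The lower genes in both were TT4, MYB12, FAH1, ECB2, MSRB6, MES9, GFA2 and AT2G31790. The call of MSRB6 in cop1-4 against Col-0 was lost without cop1-4 ZT6 replicate 2 (log2 -0.23, edgeR adjusted p = 0.15), and that of GFA2 in vil1-1cop1-4 against vil1-1 was lost without any 1 of 5 libraries (log2 -0.08 to -0.15).

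**Figure D2:**
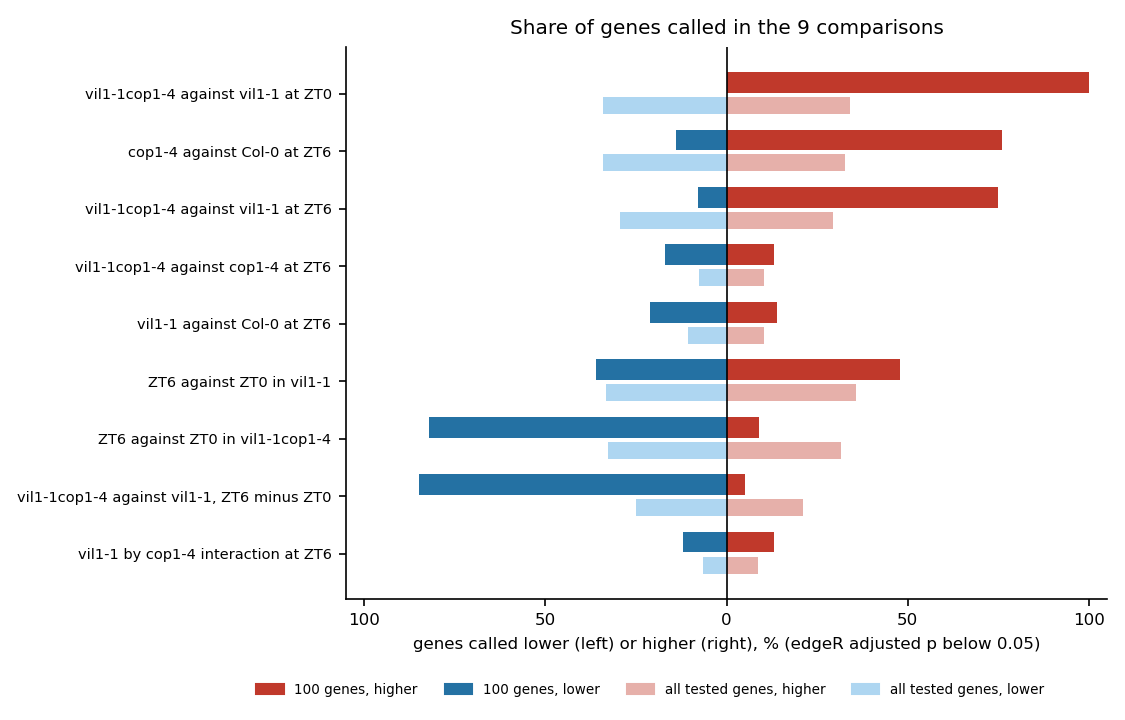
Share of the 100 genes (dark bars) and of all 21448 tested genes (pale bars) called higher (right, red) or lower (left, blue) in each of 9 comparisons, at an edgeR adjusted p below 0.05. The 100 genes reach 100% higher in vil1-1cop1-4 against vil1-1 at ZT0 and 85% lower in the difference between ZT6 and ZT0 of that comparison.

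**Figure D3:**
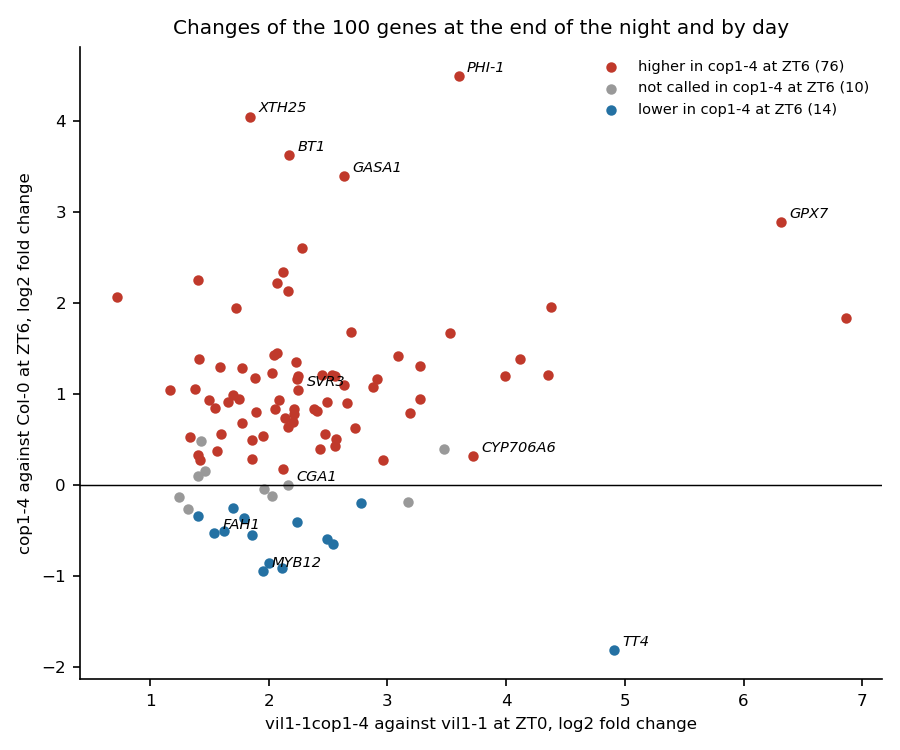
Log2 fold change of the 100 genes (points) in vil1-1cop1-4 against vil1-1 at ZT0 (x axis) and in cop1-4 against Col-0 at ZT6 (y axis), coloured by the ZT6 call. All points lie right of 0, and 14 are called lower at ZT6, TT4 lowest at -1.82.

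The change from night to day differed between the lines. In vil1-1cop1-4, 82 of the genes were lower and 9 higher at ZT6 than at ZT0, where 32.6% of all tested genes were called lower and 31.7% higher. In vil1-1, 36 were lower and 48 higher, against 33.2% and 35.7% of all tested genes. The medians were -1.05 in vil1-1cop1-4 and 0.36 in vil1-1. Of the 48 genes that rose by day in vil1-1, 35 fell by day in vil1-1cop1-4, and 34 genes fell in both lines. The matching joint shares of all tested genes were not counted. The test of the difference itself, which uses the same 4 groups, called 85 genes lower and 5 higher, where 24.9% of all tested genes were called lower and 21.1% higher, with a median of -1.44. The rule took genes with a large cop1-4 difference at ZT0, which favours a smaller difference at ZT6, so these counts describe the genes and nothing is read from them. The genes whose effect was larger by day were PHI-1, XTH25, BT1, AT1G65490 and AT5G64120, the last 2 named after their values were seen. BT1's difference (0.55 ± 0.19 SE, adjusted p = 0.023) was 0.43 with an adjusted p of 0.072 in edgeR without vil1-1 ZT0 replicate 2.

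**Figure D4:**
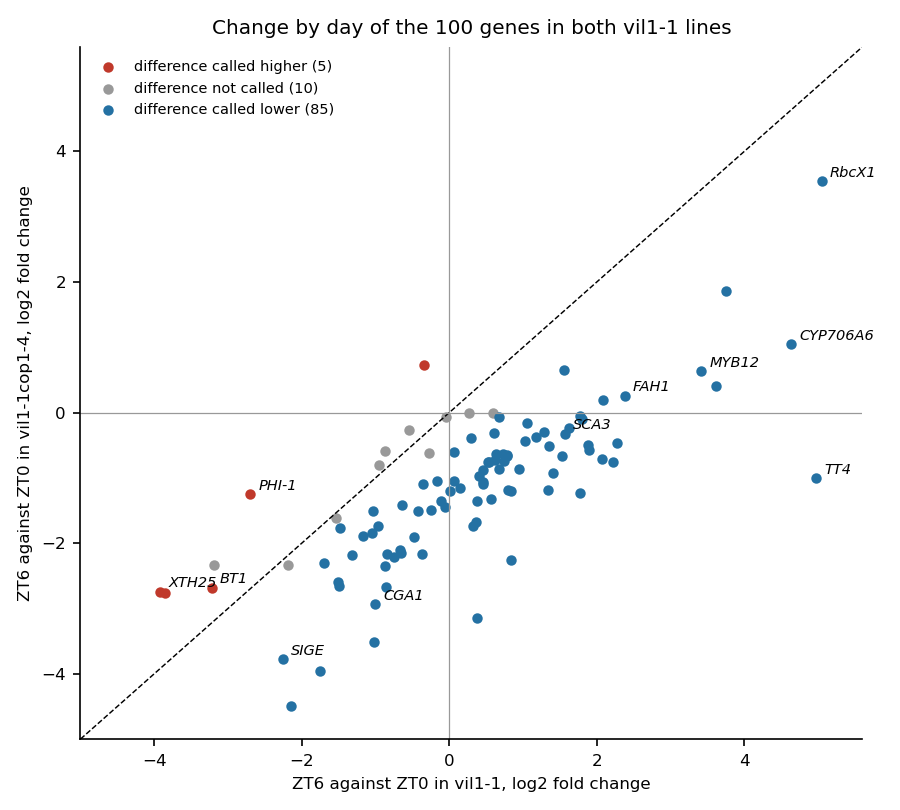
Log2 fold change from ZT0 to ZT6 of the 100 genes (points) in vil1-1 (x axis) and in vil1-1cop1-4 (y axis), which share no library. The dashed line marks equal change. Blue points (85) fell significantly below it, red points (5) above it, and TT4 moved by 4.97 in vil1-1 and -1.0 in vil1-1cop1-4.

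TT4, MYB12 and FAH1, genes of flavonoids and other UV screens, were higher in the cop1-4 lines than in their controls at ZT0 and lower at ZT6. TT4 had 214, 216 and 226 CPM in cop1-4, 2.70, 2.66 and 1.86 CPM in hy5-215 and 14, 9.47 and 10.5 CPM in Col-0 at ZT0. The libraries of these 3 lines do not overlap there, which holds for all 100 genes, as the rule chose them on these libraries. In groups outside the rule, TT4 had 336, 284 and 331 CPM in vil1-1cop1-4 against 9.11, 10.5 and 12.0 CPM in vil1-1 at ZT0 (30.1-fold, log2 4.91 ± 0.19 SE, edgeR adjusted p = 5.9e-15). By day the order was the opposite: 147, 116 and 87.2 CPM in cop1-4 against 414, 421 and 401 CPM in Col-0 (log2 -1.82 ± 0.15 SE, edgeR adjusted p = 2.4e-09). At ZT6 it was also lower in the vil1-1 background, with 170, 138 and 168 CPM in vil1-1cop1-4 against 289, 314 and 390 CPM in vil1-1 (log2 -1.06 ± 0.15 SE, edgeR adjusted p = 4.4e-06). In Col-0 and vil1-1 every ZT6 library of TT4 lay above every ZT0 library, while in both cop1-4 lines every ZT6 library lay below every ZT0 library. The effect in the vil1-1 background was 62.8-fold lower at ZT6 than at ZT0 (log2 -5.97 ± 0.24 SE, edgeR adjusted p = 6.6e-14).

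MYB12, which activates chalcone synthase and flavonol synthase genes, was likewise higher in cop1-4 than in Col-0 at ZT0 and lower at ZT6, at lower counts. Unlike TT4 it was higher at ZT6 than at ZT0 in vil1-1cop1-4 (log2 0.63 ± 0.18 SE, edgeR adjusted p = 0.0018). It had 4.01, 3.91 and 3.19 CPM in cop1-4, 0.216, 0.0467 and 0.216 CPM in hy5-215 (6, 1 and 5 reads) and 0.897, 1.29 and 0.968 CPM in Col-0 at ZT0. At ZT6 it had 7.34, 5.69 and 3.83 CPM in cop1-4 against 11.5, 9.06 and 11.8 CPM in Col-0 (log2 -0.95 ± 0.16 SE, edgeR adjusted p = 1.8e-06). Libraries of the 2 lines did not overlap at ZT6. FAH1, the ferulate 5-hydroxylase needed for sinapate esters, another class of UV screens, had 114, 118 and 109 CPM in vil1-1cop1-4 against 39.5, 39.3 and 38.6 CPM in vil1-1 at ZT0 (log2 1.54 ± 0.07 SE, adjusted p = 3.9e-20). At ZT6 it was lower in cop1-4, with 154, 142 and 155 CPM against 224, 223 and 205 CPM in Col-0 (log2 -0.53 ± 0.07 SE, adjusted p = 1.5e-08).

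AACT1 did not share that reversal, and only its product name (anthocyanin 5-aromatic acyltransferase 1) links it to anthocyanins here. It had 5.04, 4.26 and 4.58 CPM in vil1-1cop1-4 against 1.18, 1.11 and 0.938 CPM in vil1-1 at ZT0, and 3.76, 5.99 and 3.68 CPM against 1.13, 1.17 and 0.804 CPM at ZT6. The rise was 4.25-fold at ZT0 and 4.2-fold at ZT6, and the difference between the times was -0.02 ± 0.39 SE on the log2 scale (edgeR adjusted p = 0.99).

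A list of 34 flavonoid and anthocyanin genes, 30 of them tested and 2 of them among the 100 genes (TT4 and MYB12), gives the pathway around these members. In vil1-1cop1-4 against vil1-1 at ZT0, 20 of the 30 were higher and 4 lower, with a median of 1.19, against 34.0% and 34.0% of all tested genes. In cop1-4 against Col-0 at ZT6, 3 were higher and 24 lower, with a median of -1.11 (32.6% and 34.0% of all tested genes), and in vil1-1cop1-4 against vil1-1 at ZT6, 4 were higher and 16 lower (29.5% and 29.5%). Medians over all tested genes in these comparisons lay between -0.02 and -0.01.

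**Figure D5:**
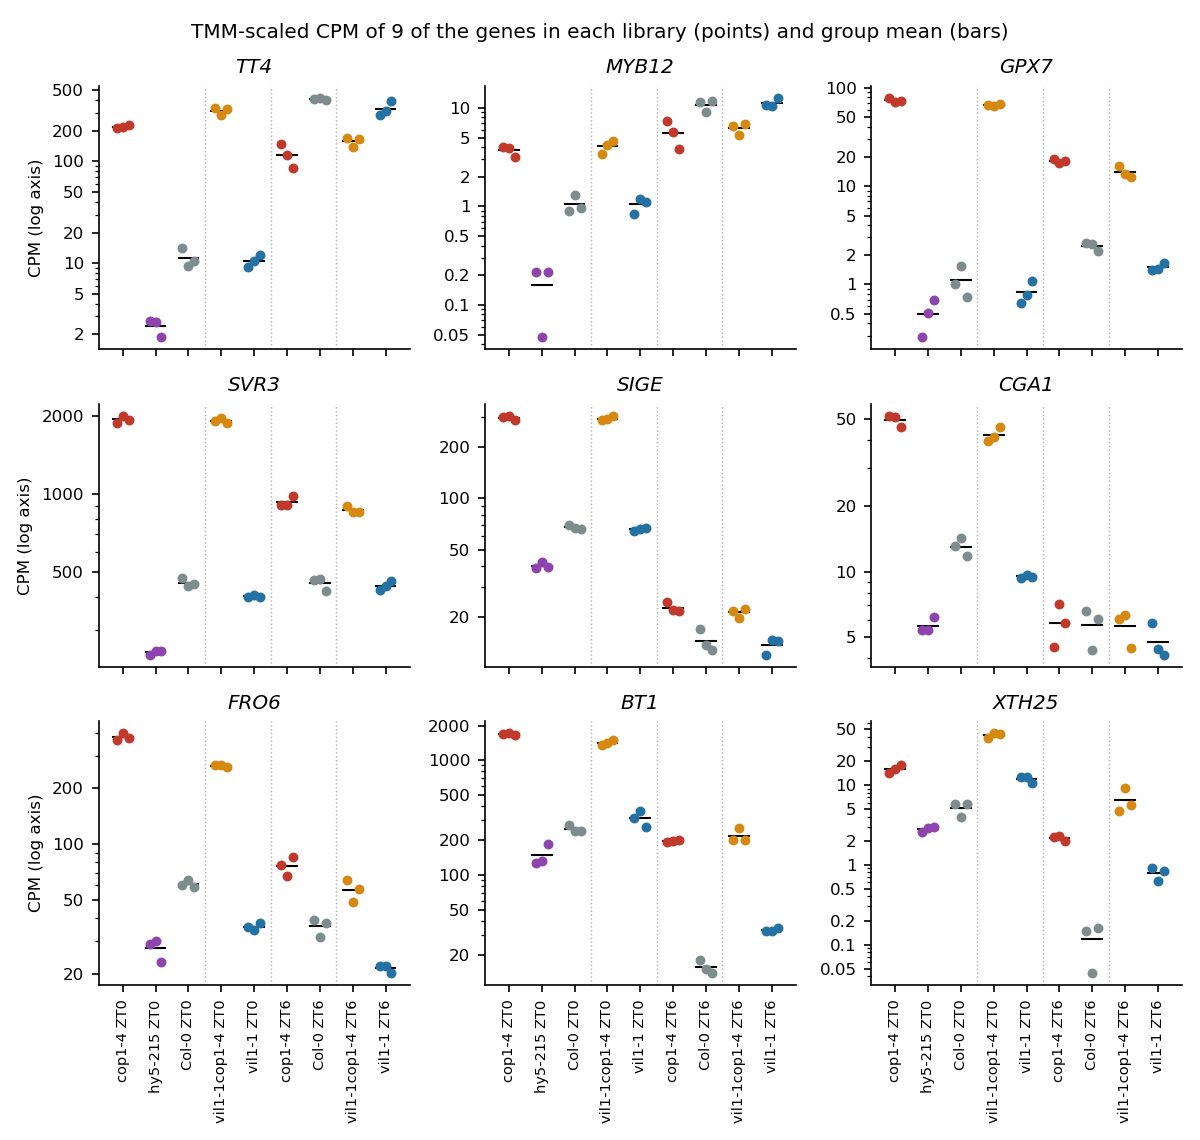
TMM-scaled CPM (log axis) of 9 of the genes in every library (points) with the group mean (bars), in the 9 groups. At ZT0 the cop1-4 lines are above their controls in every panel. At ZT6 they lie below them for TT4 and MYB12, overlap them for CGA1 and lie above them in the other 6.

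Members that act in chloroplast gene expression include SIGE, SVR3, PrfB3, SCA3 and ECB2. GYRB2 is given after them. The annotation of SCA3 and GYRB2 mentions no chloroplast, plastid or thylakoid, so neither counts among the genes with that annotation. SIGE (also known as SIG5), a nuclear-encoded sigma factor that directs the plastid RNA polymerase, had 301, 305 and 286 CPM in cop1-4, 38.8, 42.2 and 39.5 CPM in hy5-215 and 69.5, 66.8 and 66.1 CPM in Col-0 at ZT0. It had 287, 290 and 303 CPM in vil1-1cop1-4 against 64.4, 66.4 and 66.5 CPM in vil1-1 at ZT0 (4.46-fold, adjusted p = 1.9e-29 in edgeR). Its day levels were lower than its ZT0 levels in all 4 lines sampled at both times, at 24.5, 22.0 and 21.9 CPM in cop1-4 against 17.1, 13.7 and 12.9 CPM in Col-0 (1.56-fold, adjusted p = 2.6e-09 in edgeR). No ZT6 library of cop1-4 overlapped one of Col-0.

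SVR3, a plastid relative of the bacterial TypA translation factor, had 1890, 2010 and 1940 CPM in cop1-4, 239, 248 and 247 CPM in hy5-215 and 473, 442 and 451 CPM in Col-0 at ZT0. At ZT6 it had 911, 907 and 984 CPM in cop1-4 against 467, 471 and 423 CPM in Col-0 (2.06-fold, adjusted p = 4.6e-21 in edgeR). Its Col-0 libraries overlapped between the 2 times, and its cop1-4 libraries at ZT6 all lay below those at ZT0. PrfB3, a plastid protein related to peptide release factors, averaged 56.8 ± 1.34 CPM in vil1-1cop1-4 and 13.7 ± 0.553 CPM in vil1-1 at ZT0 (SD, n = 3 each), and 27.3 ± 1.82 CPM and 18.9 ± 1.5 CPM at ZT6. Both differences passed the edgeR test, at 4.14-fold and 1.45-fold.

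SCA3, a phage-type RNA polymerase of plastids, had 117, 96.4 and 100 CPM in cop1-4, 15.4, 14.5 and 16.5 CPM in hy5-215 and 31.2, 29.3 and 26.5 CPM in Col-0 at ZT0. By day the lines met, with 74.9, 73.2 and 75.8 CPM in cop1-4 against 74.4, 80.7 and 75.1 CPM in Col-0 (log2 -0.04 ± 0.06 SE, adjusted p = 0.60 in edgeR). ECB2, a pentatricopeptide protein needed for editing of plastid transcripts, had 29.7, 29.7 and 32.3 CPM in cop1-4, 3.38, 3.78 and 4.32 CPM in hy5-215 and 9.23, 8.31 and 7.48 CPM in Col-0 at ZT0. At ZT6 it was lower in cop1-4, with 18.3, 18.5 and 16.9 CPM against 23.5, 22.5 and 22.6 CPM in Col-0 (log2 -0.36 ± 0.08 SE, adjusted p = 0.00014 in edgeR). GYRB2, a subunit of organellar DNA gyrase, averaged 63.4 ± 1.41 CPM in cop1-4 and 21.8 ± 1.1 CPM in Col-0 at ZT0, but 43.2 ± 3.03 CPM and 51.2 ± 1.72 CPM at ZT6 (log2 -0.25 ± 0.06 SE, adjusted p = 0.00042 in edgeR). For all 3 genes the Col-0 level was higher at ZT6 than at ZT0 and the cop1-4 level was lower.

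Members that act in photosynthesis and plastid metabolism follow. RBCS1B, a small subunit of Rubisco, had 3910, 3720 and 3470 CPM in vil1-1cop1-4 against 1040, 1100 and 1120 CPM in vil1-1 at ZT0 (log2 1.77 ± 0.06 SE, adjusted p = 2.0e-27 in edgeR). At ZT6 it had 2520, 2550 and 2700 CPM in cop1-4 against 1650, 1660 and 1550 CPM in Col-0 (log2 0.68 ± 0.06 SE, adjusted p = 1.5e-13 in edgeR). RBCS genes are nearly identical, so the counts of this member are uncertain. RbcX1, a chaperone of Rubisco assembly, was more abundant by day in each of the 4 lines sampled at both times. It had 126, 131 and 118 CPM in vil1-1cop1-4 and 63.5, 65.3 and 66.6 CPM in vil1-1 at ZT6, against 10.5, 10.8 and 10.7 CPM and 2.34, 2.08 and 1.44 CPM at ZT0. The rise over vil1-1 was 5.45-fold at ZT0 and 1.92-fold at ZT6, and both passed the test.

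NdhU, a subunit of the chloroplast NAD(P)H dehydrogenase-like complex, averaged 226 ± 7.46 CPM in cop1-4, 49.3 ± 1.05 CPM in hy5-215 and 78.1 ± 2.07 CPM in Col-0 at ZT0, and 158 ± 18.2 CPM in cop1-4 and 79.6 ± 4.45 CPM in Col-0 at ZT6 (1.98-fold, adjusted p = 1.3e-18 in edgeR). FAD5 and FADA (also known as FAD4), which desaturate fatty acids of plastid membrane lipids, rose too. FAD5 had 812, 859 and 843 CPM in vil1-1cop1-4 against 249, 261 and 238 CPM in vil1-1 at ZT0 and was 1.96-fold higher at ZT6, while FADA had 198, 179 and 181 CPM against 38.8, 39.8 and 43.2 CPM at ZT0 and was 1.68-fold higher at ZT6. CT-BMY (also known as BAM3), the beta-amylase that breaks down leaf starch at night and named here after its values were seen, had 662, 734 and 738 CPM in cop1-4, 80.7, 85.3 and 78.0 CPM in hy5-215 and 263, 244 and 245 CPM in Col-0 at ZT0. It remained 1.88-fold higher in cop1-4 than in Col-0 at ZT6 (adjusted p = 5.2e-15 in edgeR).

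GPX7, a chloroplast glutathione peroxidase, had the largest rise of the members with a symbol in vil1-1cop1-4 against vil1-1 at ZT0. It had 66.7, 64.7 and 68.8 CPM in vil1-1cop1-4 against 0.643, 0.780 and 1.08 CPM in vil1-1 at ZT0 (log2 6.32 ± 0.14 SE, adjusted p = 5.6e-34 in edgeR). By day it had 19.0, 17.3 and 18.2 CPM in cop1-4 against 2.65, 2.56 and 2.17 CPM in Col-0 (7.39-fold, adjusted p = 5.4e-23 in edgeR). Its place on the list rests on low counts in the other direction, with 8, 11 and 16 reads in hy5-215 and 27, 36 and 20 reads in Col-0 at ZT0. FRO6 and FRO7 reduce ferric iron in leaf cells, FRO7 at the chloroplast. FRO6 had 364, 396 and 376 CPM in cop1-4, 29.2, 30.3 and 23.3 CPM in hy5-215 and 60.7, 64.2 and 58.8 CPM in Col-0 at ZT0, and FRO7 had 299, 321 and 308 CPM, 20.4, 21.3 and 17.6 CPM, and 43.4, 41.6 and 39.0 CPM in the same lines. At ZT6 they were 2.12-fold and 2.67-fold higher in cop1-4 than in Col-0, and both passed the test. As neighbours with similar sequence they may share reads.

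Of the 24 genes with a chloroplast, plastid or thylakoid annotation, 21 were higher, 2 lower and 1 not called in cop1-4 against Col-0 at ZT6, and 55 of the other 76 were higher. Both shares lie above the 32.6% of all tested genes, which the choice by the cop1-4 difference at ZT0 favours. The difference between the 2 shares was not tested. Annotation words leave out some plastid genes, and RBCS1B and SCA3 are among the other 76. The 5 leaf markers summed to 33300 to 34200 CPM in cop1-4 and 20800 to 21400 CPM in Col-0 at ZT6, with 3 of them higher and 2 lower (CAB2 at -0.37 and LHCB2.1 at -0.65 on the log2 scale). The part of that shift in the result was not tested. Of 27 light harvesting and photosynthesis genes on a list, 1 of them RBCS1B, 17 were higher and 8 lower in vil1-1cop1-4 against vil1-1 at ZT0, with a median of 0.29, where 34.0% of all tested genes were higher and 34.0% lower. In cop1-4 against Col-0 at ZT6, 15 were higher and 7 lower, with a median of 0.26, where 32.6% of all tested genes were higher and 34.0% lower. The counts that follow are from vil1-1cop1-4 against vil1-1 at ZT0, where 34.0% of all tested genes were called higher and 34.0% lower. Of 20 UV-B and photoprotection genes, which include SIGE and GPX7, 18 were higher and 1 lower, with a median of 1.37. Of 34 tested light-signalling regulators around COP1 and HY5, none of which is among the 100 genes, 26 were higher and 6 lower, with a median of 0.67. Of 23 genes for PIF signalling, shade response and elongation, 4 were higher and 16 lower, with a median of -1.41.

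Regulators among the members differed in their day behaviour. CGA1, a GATA factor that promotes chlorophyll synthesis and chloroplast growth, had 51.9, 51.0 and 45.9 CPM in cop1-4, 5.4, 5.41 and 6.17 CPM in hy5-215 and 13.1, 14.2 and 11.8 CPM in Col-0 at ZT0. By day it had 4.49, 7.08 and 5.79 CPM in cop1-4 against 6.57, 4.38 and 6.07 CPM in Col-0, and these overlap (log2 0.00 ± 0.16 SE, adjusted p = 1.0 in edgeR). CIPK20, a kinase that works with calcineurin B-like calcium sensors, averaged 68.7 ± 1.61 CPM in vil1-1cop1-4 and 15.8 ± 0.637 CPM in vil1-1 at ZT0, and 63.8 ± 5.58 CPM and 55.1 ± 1.39 CPM at ZT6. Its day difference from vil1-1 was 0.21 on the log2 scale and became -0.02 on unscaled library sizes, so no direction is given for it by day.

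BT1, a BTB and TAZ domain adapter protein, was among the members with the largest rise in cop1-4 over Col-0 at ZT6. It had 194, 196 and 201 CPM in cop1-4 against 18.3, 15.3 and 14.1 CPM in Col-0 at ZT6 (12.4-fold, adjusted p = 3.6e-14 in edgeR), and 1680, 1710 and 1640 CPM in cop1-4, 128, 133 and 187 CPM in hy5-215 and 273, 243 and 244 CPM in Col-0 at ZT0. Each of the 4 lines sampled at both times had less of it by day. MIR163, named after its values were seen, was counted as precursor RNA, so the mature form was not measured. It had 17.8, 18.3 and 15.0 CPM in cop1-4, 1.04, 0.747 and 1.3 CPM in hy5-215 and 5.79, 5.34 and 5.55 CPM in Col-0 at ZT0. It was 2.5-fold higher in vil1-1cop1-4 than in vil1-1 at ZT0 (adjusted p = 4.9e-13 in edgeR) but not called at ZT6 in either day comparison (adjusted p = 0.067 and 0.44).

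Genes for the cell wall and growth made 3 of the 4 largest rises of members in cop1-4 against Col-0 at ZT6, the other being that of BT1. XTH25, a xyloglucan endotransglucosylase that loosens or rejoins wall polymers, had 2.22, 2.31 and 1.96 CPM in cop1-4 against 0.149, 0.0442 and 0.162 CPM in Col-0 at ZT6 (46, 45 and 42 reads against 5, 1 and 5 reads), a 16.5-fold fitted difference (adjusted p = 1.4e-10 in edgeR). PHI-1, of the phosphate-responsive family, had 57.6, 66.3 and 52.5 CPM in cop1-4 against 3.27, 2.61 and 1.84 CPM in Col-0 at ZT6 (22.7-fold, adjusted p = 2.9e-13 in edgeR). GASA1, a small gibberellin-regulated peptide gene, had 896, 1180 and 1120 CPM in cop1-4 against 127, 87.6 and 87.2 CPM in Col-0 at ZT6 (10.5-fold, adjusted p = 2.8e-14 in edgeR). In all 3 genes the lowest cop1-4 library lay above the highest Col-0 library by day. At ZT0 that holds for all 100 genes, which the rule chose on those libraries.

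Another xyloglucan enzyme gene, XTH6, showed the more usual pattern: 388, 391 and 379 CPM in vil1-1cop1-4 against 132, 137 and 125 CPM in vil1-1 at ZT0, and 70.4, 58.0 and 64.1 CPM against 47.5, 47.4 and 42.9 CPM at ZT6. Its rise was 2.94-fold at ZT0 and 1.40-fold at ZT6. GSL09, of the callose synthase family, averaged 7.29 ± 0.589 CPM in cop1-4 and 1.69 ± 0.196 CPM in Col-0 at ZT6 (4.36-fold, adjusted p = 6.4e-14 in edgeR). CSLB03, of the cellulose synthase-like family, averaged 101 ± 6.24 CPM in vil1-1cop1-4 and 18.4 ± 1.92 CPM in vil1-1 at ZT0 (5.54-fold, adjusted p = 2.7e-14 in edgeR) and 16.1 ± 0.429 CPM and 6.51 ± 0.762 CPM at ZT6.

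The 7 genes with cytochrome P450 in their product name had a median log2 change of 2.66 in vil1-1cop1-4 against vil1-1 at ZT0. All 100 genes were higher there and their median was 2.15. Rank 1 of the rule, AT1G66540, is one of them, is named after its values were seen and has no symbol in the gene table. It had 34.7, 33.8 and 34.4 CPM in cop1-4, 0.252, 0.420 and 0.0863 CPM in hy5-215 (7, 9 and 2 reads) and 2.09, 3.27 and 3.16 CPM in Col-0 at ZT0. It was 2.30-fold higher in cop1-4 than in Col-0 at ZT6 (adjusted p = 1.6e-09 in edgeR). CYP706A6 had 112, 127 and 122 CPM in cop1-4, 6.04, 5.83 and 3.93 CPM in hy5-215 and 8.29, 8.78 and 10.3 CPM in Col-0 at ZT0. By day it averaged 267 ± 19.9 CPM in cop1-4 and 214 ± 13.2 CPM in Col-0 (log2 0.32 ± 0.07 SE, adjusted p = 0.00015 in edgeR), a call that is lost on unscaled library sizes (log2 0.07, adjusted p = 0.32 in edgeR). Its level in vil1-1 rose 25-fold from night to day, which left a difference between the 2 times of -3.59 on the log2 scale.

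Squalene epoxidase opens sterol synthesis, and 2 members are named for it. What the enzymes of SQE6 and SQE3 do was not examined. SQE6 averaged 113 ± 6.06 CPM in vil1-1cop1-4 and 17.0 ± 3.17 CPM in vil1-1 at ZT0 (6.63-fold) and 83.0 ± 6.37 CPM and 34.6 ± 3.54 CPM at ZT6 (2.40-fold), and both passed the test. SQE3 was 1.86 higher on the log2 scale at ZT0 and 0.36 higher at ZT6, the second of which was lost on unscaled library sizes (log2 0.13, edgeR adjusted p = 0.052). AT3G52740, rank 2 of the rule and named after its values were seen, has no name in the gene table. It had 15.8, 20.3 and 19.4 CPM in cop1-4, 0.144, 0.187 and 0.130 CPM in hy5-215 (4, 4 and 3 reads) and 2.28, 2.02 and 2.72 CPM in Col-0 at ZT0. In vil1-1cop1-4 against vil1-1 it was 7.78-fold higher at ZT0 (adjusted p = 2.1e-23 in edgeR) and at -0.01 on the log2 scale at ZT6 (adjusted p = 1.0 in edgeR).

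Most of the 100 genes, and most of all tested genes, were not called in the comparisons of vil1-1 lines with their VIL1 controls. Lower calls were more frequent among the 100 genes than among all tested genes, a difference that was not tested. In vil1-1cop1-4 against cop1-4 at ZT6, 13 of the 100 were higher and 17 lower, where 10.2% of all tested genes were called higher and 7.67% lower, with a median of -0.05. Without cop1-4 ZT6 replicate 3, 8 were lower. In vil1-1 against Col-0 at ZT6, 14 were higher and 21 lower, against 10.4% and 10.6% of all tested genes, with a median of -0.08. XTH25 rose in both: 4.75, 9.06 and 5.63 CPM in vil1-1cop1-4 against 2.22, 2.31 and 1.96 CPM in cop1-4 (log2 1.55 ± 0.20 SE, adjusted p = 7.2e-07 in edgeR), and 0.900, 0.630 and 0.844 CPM in vil1-1 against 0.149, 0.0442 and 0.162 CPM in Col-0 (log2 2.58 ± 0.49 SE, adjusted p = 0.00019 in edgeR). CYP71B24 rose in both as well, by 0.79 and 0.75. AACT1 rose by 1.61 in vil1-1cop1-4 against cop1-4, with 3.76, 5.99 and 3.68 CPM in vil1-1cop1-4 against 1.54, 1.33 and 1.45 CPM in cop1-4 (adjusted p = 1.9e-05 in edgeR). GPX7 fell in both, by 0.39 and 0.72, and FRO6 by 0.43 and 0.76.

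Whether the cop1-4 effect by day differed with VIL1 was tested as the interaction at ZT6. It called 13 of the 100 genes higher and 12 lower, where 8.76% of all tested genes were called higher and 6.5% lower, with a median of 0.05. Without vil1-1 ZT6 replicate 3, or without cop1-4 ZT6 replicate 3, 7 were lower. The widest difference was that of AT3G28270, a gene of unknown function named after its values were seen. It had 13.7, 12.2 and 14.7 CPM in vil1-1cop1-4 against 1.33, 0.930 and 1.41 CPM in vil1-1 at ZT6, and 21.1, 18.6 and 21.6 CPM in cop1-4 against 8.47, 6.76 and 8.14 CPM in Col-0. The rise was 11.4-fold in the vil1-1 background and 2.60-fold in the VIL1 background (interaction log2 2.13 ± 0.19 SE, adjusted p = 8.6e-11 in edgeR). BT1 went the other way, 6.59-fold in the vil1-1 background and 12.4-fold in the VIL1 background (interaction log2 -0.91 ± 0.21 SE, adjusted p = 0.005 in edgeR).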

How the data were processed

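For each of the 27 libraries the authors deposited unnormalised read counts, 1 whole number for each gene. The tools named are STAR, edgeR and FastQC and the genome build is TAIR10, per the submitters' processing notes. No source used here gives their versions or the strand setting of the counting. Per the labels' protocols, 1 µg of total RNA went into a strand-marking library kit. The 5 lines of each table that name no gene were dropped before any sum or test, which kept 90.8 to 96.2% of the reads listed. The gene table of TAIR10.1 (RefSeq) matched 31912 of 32678 identifiers and gave symbols, annotation text and, with its genome, upstream sequence.

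The tests used edgeR 4.0.16 under R 4.3.3: filterByExpr over the 9 groups (21448 genes; all 100 members passed), TMM, a robust quasi-likelihood fit with 1 coefficient per group (18 residual degrees of freedom) and Benjamini-Hochberg adjustment at 0.05 over all tested genes. Every adjusted p comes from that test unless DESeq2 is named; SE is the standard error of a log2 change. Replicates are not stated to be separate cultures, so a p-value reflects only how far these libraries scatter, and that scatter may be technical. No 2 replicates of a group were as close as counting noise alone allows (chi-square per degree of freedom 2.29 to 7.93). The 9 comparisons use none of the 9 libraries the rule used; contrasts with those libraries are described without a test. The members, the gene lists and the rule for named genes were chosen with earlier results of these data known. That rule took the 20 highest-ranked members with a symbol, members on a list, up to 5 called members with a symbol per side of each comparison by p, COP1, HY5, VIL1 and HYH, and 3 genes on each side of rank 100, of which 1 is not reported here; exceptions are marked. Alternatives were DESeq2 size factors, DESeq2's Wald test (version 1.42.0), no low-count filter, a replicate block, the compared groups alone, each library left out, other settings of the rule, and, added after seeing the data, unscaled library sizes and members chosen on TMM-scaled CPM. The method was also run on simulated counts, with means common to all groups and some genes raised in cop1-4 at ZT6. That setting does not test the scaling of library sizes where most genes differ. Numbers in parentheses after CPM values are raw reads where so named.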

Additional observations from a re-analysis of the deposited data

Results flagged for a closer look

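The effect of cop1-4 in the vil1-1 background differed between ZT6 and ZT0 in most of the 100 genes. The test of the difference called 5 higher and 85 lower, where 21.1% and 24.9% of all tested genes were called. The rule took genes with a large cop1-4 difference at ZT0, which favours lower calls here, so the count is a description. Among named genes the log2 difference was -3.59 for CYP706A6, -2.18 for ECB2, -2.11 for FAH1, -1.91 for CIPK20 and -1.89 for SCA3. It was 1.45 for PHI-1, 1.17 for XTH25 and 0.55 for BT1, the last of which was not called without vil1-1 ZT0 replicate 2 (0.43).

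The effect of cop1-4 at ZT6 differed between the vil1-1 and the VIL1 background in 13 genes called higher and 12 called lower. Of all tested genes, 8.76% were called higher and 6.5% lower there. Log2 differences were 0.87 for cPT4, 0.76 for TT4, 0.75 for CSLB03, 0.63 for SQE6 and 0.37 for GYRB2, and -0.91 for BT1, -0.83 for GSL09, -0.61 for GASA1, -0.57 for HOL2 and -0.36 for XTH6. Calls that were lost when 1 library was left out were those of TT4 (0.57 without cop1-4 ZT6 replicate 3, 0.67 without vil1-1 ZT6 replicate 1 and 0.71 without vil1-1cop1-4 ZT6 replicate 3), CSLB03 (0.60 without Col-0 ZT6 replicate 2, 0.66 without vil1-1 ZT6 replicate 1 and 0.70 without cop1-4 ZT6 replicate 3), GSL09 (-0.71 without vil1-1 ZT6 replicate 1) and GASA1 (-0.52 to -0.63, lost without any 1 of 9 libraries of these groups).

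Reads outside genes, which enter no comparison, made up 2.49% on average in the 3 hy5-215 libraries. The labels give no batch, so line and preparation of these libraries cannot be told apart.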

How the results depend on the processing

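Of 313 called changes of named genes, recomputed 4092 times in all, 3971 values kept their direction and call, 118 kept their direction only and 3 turned round. The 3 were on unscaled library sizes, which move the median of all genes by -0.57 in vil1-1cop1-4 against vil1-1 at ZT0, -0.26 in cop1-4 against Col-0 at ZT6 and -0.24 in vil1-1cop1-4 against vil1-1 at ZT6: CIPK20 was at -0.08 in cop1-4 against Col-0 and -0.02 in vil1-1cop1-4 against vil1-1 at ZT6, and COP1 at -0.06 in vil1-1cop1-4 against vil1-1 at ZT0. On that scale 13 members were called lower in vil1-1cop1-4 against vil1-1 at ZT6 (8 as reported) and 8 higher in its difference between times (5 as reported). With members chosen on TMM-scaled CPM, which keep 65 of the 100, that difference was called higher in 10, and 14 (9 as reported) rose by day in vil1-1cop1-4. Fitting the compared groups alone gave 10 lower members in vil1-1cop1-4 against cop1-4 at ZT6 (17 as reported), and leaving out 1 library gave 8 to 25. Leaving out 1 library gave 7 to 14 lower members for the interaction at ZT6 (12 as reported). The cause was not tested. Other counts stayed within 1.5 times under every alternative.

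Equal replicate numbers did not pair the samples: correlations of same-numbered deviations were -0.08 to 0.09, and 7 of 27 libraries matched their own number best. With a replicate block, 76 members were higher in cop1-4 against Col-0 at ZT6, as without it, and the largest move in a count was to 16 lower members in vil1-1cop1-4 against cop1-4 at ZT6. Low counts limit the precision of AT1G66540, AT3G52740 and MYB12 in hy5-215, with 1 to 9 reads per library, and of XTH25 in Col-0 at ZT6, with 1 to 5.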
